A study of Mus musculus with 66 samples.

Results

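The genes described here are 27 genes of cholesterol synthesis, cholesterol handling and control by the sterol regulatory element binding proteins (SREBPs), measured by RNASeq in the central nervous system of spontaneous *Rorb* mutant mice. The list is given by gene symbol, and all 27 symbols were found among the 45706 gene identifiers of the deposited files. It holds 8 genes from acetoacetyl-CoA to the isoprenoid diphosphates (*Acat2*, *Hmgcs1*, *Mvk*, *Pmvk*, *Mvd*, *Idi1*, *Fdps*, *Ggps1*), 3 genes of squalene and lanosterol formation (*Fdft1*, *Sqle*, *Lss*), 8 genes from lanosterol to cholesterol (*Cyp51*, *Tm7sf2*, *Msmo1*, *Nsdhl*, *Hsd17b7*, *Ebp*, *Sc5d*, *Dhcr7*), 5 genes of SREBP control (*Srebf1*, *Srebf2*, *Scap*, *Insig1*, *Insig2*) and 3 genes of sterol transport and storage (*Stard4*, *Npc1*, *Soat1*).

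The brain makes its own cholesterol, because lipoproteins of the blood do not cross the blood-brain barrier, and myelin, the lipid sheath that oligodendrocytes wrap around axons, holds most of it. SREBP2, the product of *Srebf2*, is carried from the endoplasmic reticulum to the Golgi by SCAP when membrane sterol is low, is cleaved there, and then raises transcription of nearly every enzyme of the pathway. The INSIG proteins hold SCAP and SREBP back when sterol is abundant, and *Insig1* and *Srebf1* are themselves SREBP or sterol-responsive genes, so that the transcripts of the pathway are known to move together.

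The study sequenced polyA RNA of 66 libraries in 20 groups from 5 strains that carry independent homozygous *Rorb* alleles, named h1 to h5, and from wild-type mice, to ask how loss of this nuclear receptor alters gene expression in tissues that bear on the high-stepping gait and on seizure susceptibility. The h1 allele, a duplication that takes in the first exon of the *Rorb1* transcript, is on C57BL/6J. The h2 and h3 strains are on B6(Cg)-Tyr c-2J/J, which carries an albino *Tyr* allele, and their causal mutations are not known. The h4 allele, a nonsense mutation, arose on B6.129S7-Il1r1 tm1/mx/J (spelled as in the study's strain list), so that these mice may differ from the controls at *Il1r1* as well. The h5 allele removes the start codon of *Rorb1* and is on DBA/1J. The same 3 C57BL/6J mice served as controls for h1 to h4. They carry neither the *Tyr* nor the *Il1r1* allele, so that background and *Rorb* allele cannot be told apart in the h2, h3 and h4 comparisons, and the 4 comparisons share their controls. The h5 strain was compared with DBA/1J. Brain hemi-sections and spinal cords came from the same animals, 3 mice per group for C57BL/6J, h1/h1, DBA/1J and h5/h5 and 4 per group for h2/h2, h3/h3 and h4/h4, aged 7.9 to 9.6 weeks. All C57BL/6J and h1/h1 mice were 8.0 weeks old, h2/h2 7.9 to 9.4 and h3/h3 8.0 to 9.6. The h4/h4 mice were 8.4 to 8.6 weeks old, DBA/1J 8.4 to 8.9 and h5/h5 8.4 to 8.7. Of h1 to h4, only h1/h1 mice share a series of animal identifiers with C57BL/6J. Age and series thus differed with allele in h2 to h4 and with strain between the wild types, and their parts cannot be told apart. Cortex, hippocampus and cerebellum came from 3 other DBA/1J and 3 other h5/h5 mice at 7.0 weeks. Both sexes were present in each group, but not in equal shares. Brain and spinal cord had 2 females and 1 male in C57BL/6J, h1/h1 and h5/h5. They had 3 females and 1 male in h2/h2, 1 and 3 in h3/h3, 2 and 2 in h4/h4, and 1 and 2 in DBA/1J.

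Total counts ran from 32889755 to 59120536 per library, with a median of 42391893. Every member passed the filter on low counts in all comparisons. *Rorb* itself was checked first against the labels. In spinal cord its mean TPM (a level scaled to depth and transcript length) was 8.19 in C57BL/6J, 6.28 in h1/h1, 5.06 in h2/h2, 8.05 in h3/h3 and 2.04 in h4/h4, and 8.54 in DBA/1J and 10.3 in h5/h5. *Rorb* was lower in h1/h1, h2/h2 and h4/h4 spinal cord with log2 fold changes of -0.28, -0.72 and -2.21, was not called in h3/h3 at -0.02, and stood at 0.25 in h5/h5 with an adjusted p of 0.376. The h3 group is not checked by this level, since *Rorb* did not differ there. In h5/h5 *Rorb* lay above DBA/1J without overlap in each tissue, at 9.47 to 10.96 against 8.49 to 8.58 TPM in spinal cord. In brain it was at 15.4 to 18.24 against 10.59 to 13.75 TPM. The paper also reports higher *Rorb* in h5/h5, by qRT-PCR and RNASeq.

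Several libraries stood apart from their group. The summed TPM of 4 markers (*Prx*, *Pmp2*, *Drp2*, *Cldn19*) of Schwann cells, cells of the peripheral nerve that a cleanly extruded cord should lack, was between 16.5 and 20.4 in most spinal cord libraries, nearly all of it from *Drp2*. It was 21.3 in C57BL/6J replicate 1, 23.8 in h2/h2 replicate 1, and 25.5 and 102.2 in h5/h5 replicates 1 and 3. *Prx*, which encodes the myelin protein periaxin, was at 1.77, 1.92, 2.53 and 32.92 TPM in these libraries and at 0.14 to 0.37 TPM in all other spinal cord libraries. The counts of members called are given with and without each of them, and so are the other lipid genes called in a mutant. The brain of DBA/1J replicate 1 had a summed TPM of 22.6 for 4 cerebellum markers (*Pcp2*, *Gabra6*, *Cbln1*, *Barhl2*), against 356.9 and 370.1 in the other two DBA/1J brains and 218.0 or more in all other brain libraries, a level close to the 23.8 to 36.0 of spinal cord. The counts of members called that use it are given with and without it. In the 3 dissected regions h5/h5 replicate 3 is labelled female, but the Y-linked *Ddx3y* was at 30.77, 37.97 and 50.06 TPM and *Xist* at 0.00, 0.43 and 0.04 TPM in its cortex, hippocampus and cerebellum, as in a male. No member was called in those regions with or without this animal.

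Promoters were read for the members because SREBPs act through a sterol response element together with the CCAAT box that NF-Y binds. RefSeq promoter sequence (GRCm38.p6, 250 bases before to 50 bases after the start of the gene) was at hand for 22 of the 27 genes. It was not at hand for *Fdps*, *Fdft1*, *Sqle*, *Stard4* and *Npc1*. The letters TCACNCCAC, with N any base, on either strand were found in 1 of the 22 (4.5%) and in 1.44% of 27025 genes with an entry. The letters CCAAT on either strand were found in 20 of the 22 (90.9%) and in 41.06% of all genes with an entry, or 42.32% of the 17492 protein-coding ones. A match is a description of these letters in this window. The promoters of 4 members are printed here, with matches in capitals (ATTGG is CCAAT on the other strand): *Hmgcs1* (chr13:119690101-119690400, plus strand) as the only one with TCACNCCAC, *Mvk* (chr5:114444019-114444318, plus strand) with the most CCAAT boxes, 5, and *Mvd* (chr8:122443373-122443672, minus strand) and *Insig1* (chr5:28071162-28071461, plus strand) because their transcripts were called in a mutant. *Srebf1*, also called in a mutant, has several entries, not all with CCAAT and none with TCACNCCAC, and is not printed.
Hmgcs1: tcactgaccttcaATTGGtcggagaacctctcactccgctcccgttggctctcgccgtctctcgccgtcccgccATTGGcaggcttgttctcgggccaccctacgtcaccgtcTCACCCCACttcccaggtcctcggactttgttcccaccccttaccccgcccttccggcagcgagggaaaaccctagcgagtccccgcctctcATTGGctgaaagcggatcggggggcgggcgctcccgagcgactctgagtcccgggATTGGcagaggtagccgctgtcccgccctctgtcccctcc
Mvk: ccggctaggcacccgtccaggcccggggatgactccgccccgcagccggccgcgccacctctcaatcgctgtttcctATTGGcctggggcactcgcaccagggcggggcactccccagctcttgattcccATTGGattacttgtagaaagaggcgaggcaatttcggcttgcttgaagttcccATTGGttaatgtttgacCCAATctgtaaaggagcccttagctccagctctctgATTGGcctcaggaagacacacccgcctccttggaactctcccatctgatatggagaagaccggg
Mvd: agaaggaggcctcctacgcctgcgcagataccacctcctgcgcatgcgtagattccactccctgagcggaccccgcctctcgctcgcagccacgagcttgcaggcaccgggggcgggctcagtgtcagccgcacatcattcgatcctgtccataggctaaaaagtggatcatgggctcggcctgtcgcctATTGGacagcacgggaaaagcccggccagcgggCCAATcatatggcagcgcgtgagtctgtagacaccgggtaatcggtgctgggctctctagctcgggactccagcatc
Insig1: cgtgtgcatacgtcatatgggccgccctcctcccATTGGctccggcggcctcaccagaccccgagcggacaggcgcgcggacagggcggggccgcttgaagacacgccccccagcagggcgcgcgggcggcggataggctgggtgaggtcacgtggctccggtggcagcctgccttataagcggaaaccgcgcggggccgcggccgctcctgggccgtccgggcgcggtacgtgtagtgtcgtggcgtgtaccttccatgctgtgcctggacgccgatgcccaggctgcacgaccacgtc

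The first question was whether the pathway differed in the spinal cord of each mutant. In h2/h2 spinal cord 4 of the 27 genes were higher than in C57BL/6J and none was lower, in h4/h4 2 were higher and none lower, and in h1/h1, h3/h3 and h5/h5 none passed the test (edgeR quasi-likelihood test, Benjamini-Hochberg adjusted p of 0.05 over all genes tested). Across all genes the same test called 2.09% in h2/h2 (0.876% higher), 1.75% in h4/h4 (0.562% higher), 0.289% in h1/h1, 1.01% in h3/h3 and 0.00581% (1 gene of 17210) in h5/h5. In whole tissue, more cells of a type and more RNA per cell cannot be told apart. The genes called in a mutant were *Mvd* (ENSMUSG00000006517, chr8:122433596-122443422), *Sqle* (ENSMUSG00000022351, chr15:59315092-59331193), *Srebf1* (ENSMUSG00000020538, chr11:60199084-60224186), *Insig1* (ENSMUSG00000045294, chr5:28071412-28078662) and *Fdft1* (ENSMUSG00000021273, chr14:63145150-63181687), with RefSeq positions on GRCm38.p6. Their values are counts scaled to library size (CPM) after TMM scaling of the libraries of a tissue, in replicate order.

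*Mvd* encodes mevalonate diphosphate decarboxylase, which makes isopentenyl diphosphate, the building block of all later steps. It was at 16.7, 17.5 and 16.6 CPM in the 3 C57BL/6J spinal cords and at 21.7, 21.2, 22.6 and 19.1 CPM in the 4 h2/h2 spinal cords. All 4 mutant libraries lay above all 3 controls, and the log2 fold change was 0.32 ± 0.064 with an adjusted p of 0.0134. The value after ± is, for every log2 fold change, an approximate standard error, its absolute size over the square root of the F statistic. In h3/h3 *Mvd* was at 19.2, 22.7, 19.0 and 21.1 CPM and in h4/h4 at 20.8, 21.3, 17.5 and 18.5 CPM. Neither group overlapped the controls, the lowest h4/h4 library lying just above the highest of them, but neither difference was called (0.28 ± 0.073, adjusted p = 0.106, and 0.20 ± 0.075, adjusted p = 0.215). In h1/h1 the values were 17.7, 19.4 and 17.9 CPM, with a log2 fold change of 0.12 ± 0.065. On the DBA/1J background *Mvd* was at 22.3, 23.8 and 20.6 CPM in wild-type and 23.6, 26.4 and 21.6 CPM in h5/h5 mice, and these groups overlapped.

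*Sqle* encodes squalene epoxidase, the first oxygen-dependent and a rate-controlling step of sterol synthesis, and was the only member called in more than 1 mutant. It was at 115, 123 and 116 CPM in C57BL/6J, at 127, 141, 131 and 129 CPM in h2/h2 and at 138, 132, 132 and 126 CPM in h4/h4 spinal cord. Both mutants lay wholly above the controls that they share, with log2 fold changes of 0.16 ± 0.038 (adjusted p = 0.0403) in h2/h2 and 0.16 ± 0.037 (adjusted p = 0.048) in h4/h4. *Sqle* was at 122, 127 and 130 CPM in h1/h1 and at 124, 132, 119 and 126 CPM in h3/h3, both of which overlapped the controls. It was at 146, 145 and 143 CPM in DBA/1J and 157, 156 and 150 CPM in h5/h5. The h5/h5 values did not overlap DBA/1J, but the log2 fold change of 0.10 ± 0.031 was not called (adjusted p = 0.501).

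*Fdft1*, squalene synthase, commits farnesyl diphosphate to sterols. It was at 110, 106 and 111 CPM in C57BL/6J and at 124, 120, 118 and 118 CPM in h4/h4 spinal cord, so that the groups did not overlap, and it rose by 0.14 ± 0.031 on the log2 scale (adjusted p = 0.0418). In h2/h2 it was at 112, 122, 115 and 118 CPM, also above every control, with a log2 fold change of 0.10 ± 0.034 that was not called (adjusted p = 0.144). *Lss*, lanosterol synthase, the next enzyme after *Sqle*, was at 80.9, 87.0 and 81.7 CPM in C57BL/6J and 93.2, 90.8 and 94.7 CPM in h1/h1. That was the smallest adjusted p among members in h1/h1 (0.16 ± 0.038, adjusted p = 0.0985).

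Among the control genes, *Srebf1*, which encodes SREBP1, the family member best known for fatty acid synthesis, was at 49.4, 50.7 and 48.4 CPM in C57BL/6J and 57, 55.0, 60.1 and 56.1 CPM in h2/h2 spinal cord. It did not overlap the controls and rose by 0.20 ± 0.042 (log2, adjusted p = 0.0159). Its values were 53.4, 54.6 and 50.6 CPM in h1/h1, 56.5, 56.9, 52.7 and 60.0 CPM in h3/h3 and 55.1, 56.6, 52.9 and 54.9 CPM in h4/h4. The h3/h3 and h4/h4 values also lay above every control, with adjusted p of 0.102 and 0.101, whereas h5/h5, at 42.8, 47.1 and 42.6 CPM, overlapped DBA/1J at 47.5, 45.2 and 47.4 CPM. *Insig1*, which encodes a protein that retains SCAP and SREBP, was at 133, 143 and 137 CPM in C57BL/6J and at 145, 154, 151 and 159 CPM in h2/h2. It rose by 0.15 ± 0.035 (log2, adjusted p = 0.0334), with no overlap. The h4/h4 values of 165, 154, 146 and 148 CPM gave the same log2 size, 0.15 ± 0.043, with an adjusted p of 0.0864.

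**Figure D1:**
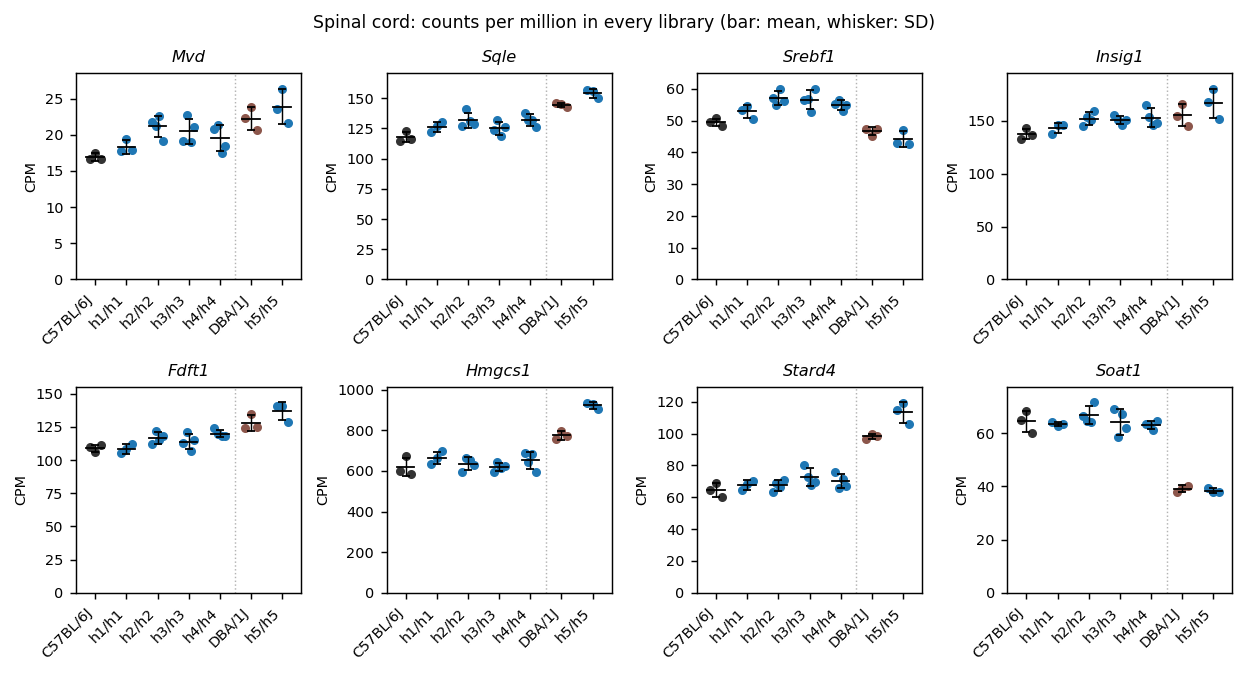
CPM (y axis from 0) of 8 genes in every spinal cord library, by genotype on the x axis; each point is a library, the bar is the group mean and the whiskers the SD, and a dotted line parts the C57BL/6J comparisons from the DBA/1J comparison. *Sqle* sits above its 3 C57BL/6J controls in all h2/h2 and h4/h4 libraries, *Hmgcs1* is at 905 to 936 CPM in h5/h5 against 755 to 797 CPM in DBA/1J, and *Soat1* is at 37.9 to 40.3 CPM in DBA/1J against 60.1 to 68.2 CPM in C57BL/6J.

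The calls were lost without some single libraries. Without C57BL/6J replicate 1, the control with Schwann cell transcripts, no member was called in h2/h2 or h4/h4 spinal cord. In h2/h2 the count was 4 without C57BL/6J replicate 2 or h2/h2 replicate 1, 3 without h2/h2 replicate 4, 2 without C57BL/6J replicate 3 or h2/h2 replicate 2, and 0 without h2/h2 replicate 3. When C57BL/6J replicate 1 and h2/h2 replicate 1 were both left out the log2 fold changes were 0.30 for *Mvd*, 0.16 for *Sqle*, 0.20 for *Srebf1* and 0.14 for *Insig1*, and none was called. All genes called fell from 365 to 86 in that fit, so that the loss was not particular to the members. Numbers of all genes called with 1 library left out are not given here. In h4/h4 the count was 1 without C57BL/6J replicate 2, h4/h4 replicate 1 or h4/h4 replicate 4 and 0 without C57BL/6J replicate 3, h4/h4 replicate 2 or h4/h4 replicate 3. *Fdft1* kept its call in none of these 7 refits (0.121 to 0.155, adjusted p from 0.0728 to 0.13), and *Sqle* kept it only without C57BL/6J replicate 2 (0.190, adjusted p = 0.0349) or h4/h4 replicate 4 (0.182, adjusted p = 0.0385). Among 9 oligodendrocyte markers *Opalin*, a myelin gene, was called higher in h2/h2 (0.34 ± 0.071) and in h4/h4 (0.43 ± 0.090), and in both it kept its call in 4 of the 7 refits that left out 1 library. In h2/h2 it was lost without C57BL/6J replicate 1 or h2/h2 replicate 2 or 3 (adjusted p = 0.115, 0.0570 and 0.0628), and in h4/h4 without C57BL/6J replicate 1 or 3 or h4/h4 replicate 2 (adjusted p = 0.130, 0.0812 and 0.0684). The median log2 fold change of the 9 was -0.033 and 0.022, and their summed TPM was 5705 to 6370 in h2/h2, 5640 to 6437 in h4/h4 and 5930 to 6175 in C57BL/6J. Of 6 astrocyte markers 2 were called lower in h2/h2 (*Aqp4* and *Slc1a2*) and 1 higher in h4/h4 (*Slc1a3*). Of 5 neuron markers 1, *Syt1*, was called lower in both, and none of the 5 had a positive log2 fold change in either. Of 5 blood markers 1 was called higher and 1 lower in h2/h2 and 1 higher in h4/h4. The part of any of these in the results was not tested.

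The other members were read as a list. In h2/h2 spinal cord 20 of the 27 log2 fold changes were positive, with a median of 0.060 and a range of -0.12 to 0.32, against a median of 0.002 over all genes tested. The h4/h4 values had 19 positive and a median of 0.070, up to 0.26 for *Mvk*, mevalonate kinase (17.3, 17.8 and 16.4 CPM in C57BL/6J and 19.6, 22.1, 21.0 and 19.9 CPM in h4/h4, adjusted p = 0.0559). All 4 h4/h4 libraries exceeded every control for 10 members and fell under every control for 1, *Insig2*, where 6.19% of all genes lay wholly above and 6.58% wholly below. In h2/h2 7 members lay wholly above, against 6.85% of all genes, and 1, again *Insig2*, wholly below, against 7.03%. In h1/h1 2 lay above (7.51% of all genes) and 3 below (8.45%), and in h3/h3 3 above (6.25%) and 2 below (6.91%). For h1/h1 edgeR called 0 members, 5 had an unadjusted p under 0.05 (2 of them higher) as had 1951 of 17309 genes, DESeq2 called 1 (of 139 genes), and the median was 0.030. For h3/h3 edgeR called 0, 7 had an unadjusted p under 0.05 (5 higher) as had 2376 of 17512 genes, DESeq2 called 2 (of 439 genes), and the median was 0.045. When 1 library was left out the member median ran from 0.007 to 0.058 in h1/h1 (lowest without h1/h1 replicate 3 and highest without C57BL/6J replicate 2, and 0.014 without C57BL/6J replicate 1), from 0.034 (without C57BL/6J replicate 3) to 0.087 in h2/h2, from 0.030 to 0.063 in h3/h3, and from 0.045 (without h4/h4 replicate 1) to 0.113 and 0.119 (without h4/h4 replicate 4 or C57BL/6J replicate 2) in h4/h4.

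Some members stood on the other side. *Insig2*, the second retention protein, was at 56.4, 55.3 and 55.6 CPM in C57BL/6J and 52.5, 47.7, 51.6 and 52.9 CPM in h4/h4 spinal cord, all below the controls, with a log2 fold change of -0.13 ± 0.044 that was not called (adjusted p = 0.192). Its values in the other strains were -0.12 in h1/h1, -0.075 in h2/h2, -0.053 in h3/h3 and -0.092 in h5/h5. *Tm7sf2*, a sterol reductase, was at -0.18 ± 0.092, -0.12 ± 0.092, -0.18 ± 0.104 and -0.12 ± 0.091 in h1/h1 to h4/h4, with the highest standard errors of the list in each of these comparisons. *Idi1* was at -0.14 ± 0.043 in h1/h1 (adjusted p = 0.2). *Srebf2*, the main regulator of the pathway, lay between 0.025 and 0.10 in the 5 mutants. It was at 158, 178 and 166 CPM in C57BL/6J and 175, 181, 189 and 173 CPM in h4/h4, which overlap.

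The median log2 ratio of the 27 genes to the control mean was taken for each library. It ran from -0.023 to 0.048 in the 3 C57BL/6J spinal cords, and was -0.004, 0.019 and 0.059 in h1/h1, 0.025, 0.091, 0.076 and 0.029 in h2/h2, 0.023, 0.067, 0.007 and 0.082 in h3/h3, and 0.144, 0.075, 0.060 and 0.018 in h4/h4. Each of these 4 mutants had at least 1 library within the range of the controls.

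With all libraries in, the h5/h5 spinal cord had the highest member median of the 5 mutants, 0.104, but no member passed the edgeR test, which called 1 gene of 17210. When 1 library was left out the median ran from 0.087 to 0.146, while that of h4/h4 reached 0.119. The mutants were not tested against each other. The study, with DESeq2, linked its h5/h5 spinal cord genes to terms of lipid biosynthesis and axon ensheathment. The unadjusted p was under 0.05 for 12 of the 27, all higher, and for 1532 of 17210 genes, and DESeq2 called 4 members (*Hmgcs1*, *Idi1*, *Msmo1* and *Stard4*, with adjusted p of 6.59e-11, 0.00991, 0.019 and 0.0196) among 91 genes. *Hmgcs1*, cytosolic HMG-CoA synthase and the most abundant member, was at 755, 797 and 773 CPM in DBA/1J and 936, 931 and 905 CPM in h5/h5. The groups lay far apart relative to their spread, with a log2 fold change of 0.26 ± 0.036 and an adjusted p of 0.106, the smallest among members. *Idi1*, isopentenyl diphosphate isomerase, was at 181, 192 and 165 CPM in DBA/1J and 218, 229 and 194 CPM in h5/h5 (0.26 ± 0.070, adjusted p = 0.466), and *Stard4*, a cytosolic sterol carrier, at 96.8, 99.6 and 98.5 CPM and 115, 119 and 106 CPM (0.21 ± 0.046, adjusted p = 0.336). Neither pair of groups overlapped. All h5/h5 libraries lay above all DBA/1J libraries for 10 members (*Hmgcs1*, *Pmvk*, *Idi1*, *Fdps*, *Sqle*, *Lss*, *Msmo1*, *Nsdhl*, *Sc5d* and *Stard4*), where 6.47% of all genes did, and below for *Npc1*, the lysosomal cholesterol exporter, at 176, 174 and 180 CPM against 186, 188 and 182 CPM, where 8.19% of all genes lay wholly below.

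Log2 fold changes in h5/h5 were positive for 7 of 8 mevalonate genes, all 3 squalene genes, all 8 enzymes from lanosterol to cholesterol, 2 of 5 SREBP control genes and 1 of 3 genes of transport and storage, none of them called by edgeR, where 50.4% of all genes were positive. Among the enzymes from lanosterol to cholesterol *Msmo1*, a sterol methyl oxidase, had the highest of the 8 at 0.19 ± 0.046 and *Tm7sf2* the lowest at 0.067 ± 0.096. The median log2 ratio of the 27 genes to the DBA/1J mean was 0.121, 0.136 and 0.052 in h5/h5 replicates 1 to 3 and -0.046 to 0.036 in the DBA/1J libraries. Replicate 3, the library with the most Schwann cell transcripts, had the lowest of these medians. Without it the member median was 0.130, with 0 members called by edgeR. Without replicates 1 and 3, which leaves 1 h5/h5 library, the median was 0.145. The 9 oligodendrocyte markers were also all positive in this comparison, with a median of 0.145, and their summed TPM was 5690 to 5830 in h5/h5 and 4965 to 6020 in DBA/1J. All 5 precursor and new oligodendrocyte markers (median 0.141) and all 5 blood markers (median 0.579) were positive too, and no marker of these 3 lists was called. Whether they account for the member values was not tested.

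**Figure D2:**
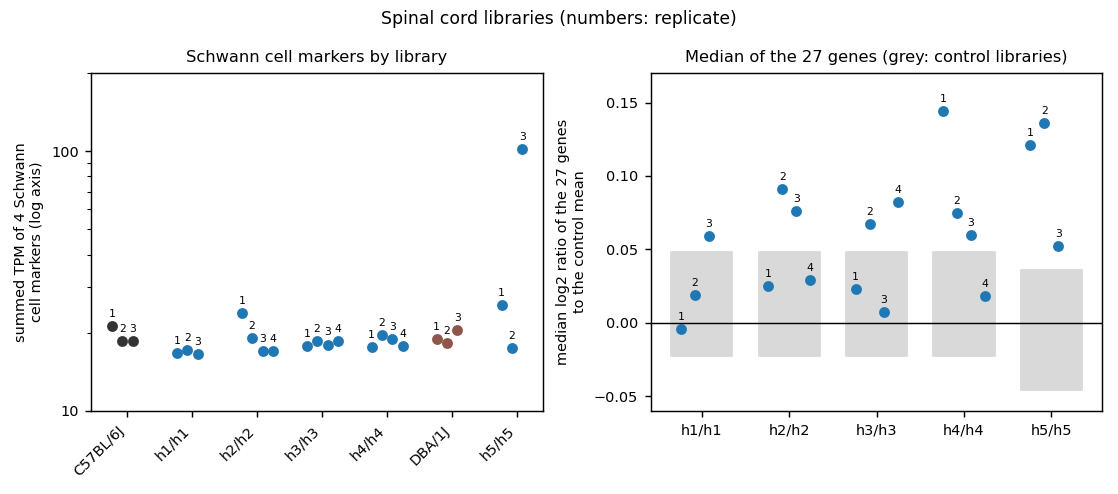
Left, summed TPM (log axis) of 4 Schwann cell markers in each spinal cord library, numbered by replicate, by genotype; right, median log2 ratio of the 27 genes to the control mean in each mutant library (points), with the range of the control libraries in grey. The h5/h5 library with 102.2 TPM of Schwann cell markers has the lowest member median of its group, 0.052, and all 3 h5/h5 points lie above the DBA/1J range of -0.046 to 0.036.

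More members were called between the wild-type strains than in any mutant. In spinal cord 14 of the 27 members were higher in DBA/1J than in C57BL/6J and 3 were lower, where the test called 21.3% of all genes (8.55% higher and 12.7% lower). The 14 held 6 of the 8 mevalonate genes, all 3 squalene genes, 2 of 8 later enzymes, *Insig1*, *Stard4* and *Npc1*. *Stard4* was at 64.6, 69.1 and 60.0 CPM in C57BL/6J and 96.8, 99.6 and 98.5 CPM in DBA/1J, with no overlap and a log2 fold change of 0.60 ± 0.049 (adjusted p = 1.24e-06). *Mvd* (0.39 ± 0.072), *Nsdhl*, an enzyme of sterol demethylation (0.39 ± 0.061), *Hmgcs1* (0.32 ± 0.054), *Fdps*, farnesyl diphosphate synthase (0.31 ± 0.049), *Mvk* (0.30 ± 0.086) and *Sqle* (0.29 ± 0.036) followed. The *Mvk* call was lost without C57BL/6J replicate 1, C57BL/6J replicate 3 or DBA/1J replicate 1 (adjusted p = 0.0748, 0.0786 and 0.128), and the *Insig1* call without C57BL/6J replicate 1, C57BL/6J replicate 3 or DBA/1J replicate 2 (adjusted p = 0.107, 0.0532 and 0.0703). The sterol regulators *Srebf2* (0.12 ± 0.054), *Srebf1* (-0.085 ± 0.049), *Scap* (0.076 ± 0.041) and *Insig2* (-0.080 ± 0.045) did not pass.

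The 3 members lower in DBA/1J spinal cord were *Soat1*, *Sc5d*, a sterol desaturase, and *Cyp51*, lanosterol demethylase, at -0.72 ± 0.056, -0.34 ± 0.042 and -0.17 ± 0.046. The *Cyp51* call was lost without C57BL/6J replicate 2, DBA/1J replicate 1 or DBA/1J replicate 3 (adjusted p = 0.083, 0.065 and 0.0615). *Soat1*, which esterifies cholesterol for storage, was at 65.0, 68.2 and 60.1 CPM in C57BL/6J and 37.9, 39.3 and 40.3 CPM in DBA/1J, with no overlap and the smallest adjusted p of the list (8.43e-07). On the TPM scale the same libraries gave 21.5 ± 0.949 in C57BL/6J and 23.0 ± 1.25 in DBA/1J (SD, n = 3), a log2 ratio of 0.097. The effective transcript length that RSEM assigned to *Soat1*, which averages the lengths of its transcripts by their estimated abundance, was 5507 ± 553 bases in C57BL/6J and 3137 ± 235 bases in DBA/1J. Thus the fewer counts went with a shorter estimated transcript, by -0.81 on the log2 scale. In brain the length differed by -0.85, the counts by -0.61 ± 0.078 and the TPM by 0.18. A length difference of 0.5 or more on the log2 scale in either direction was found for 1.00% of the 15227 genes with a mean TPM of 1 or more in spinal cord, and no other member reached it. For *Sc5d* it was -0.19, with a TPM difference of -0.15. The cause was not tested.

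In brain 2 members were higher in DBA/1J and 3 lower, where 11.2% of all genes were called (4.04% higher and 7.20% lower). *Stard4* (0.42 ± 0.064, adjusted p = 0.00244) and *Fdps* (0.29 ± 0.073, adjusted p = 0.0322) were higher. *Soat1*, *Sc5d* (-0.37 ± 0.057) and *Ggps1*, geranylgeranyl diphosphate synthase (-0.23 ± 0.061, adjusted p = 0.041), were lower. Without DBA/1J replicate 1, whose brain lacked cerebellum markers, 6 members were called (*Ggps1*, *Cyp51*, *Msmo1*, *Sc5d*, *Stard4* and *Soat1*) and *Fdps* was at 0.20 with an adjusted p of 0.0867. *Fdps* also lost its call without C57BL/6J replicate 1, 2 or 3 or DBA/1J replicate 3 (adjusted p = 0.0753, 0.142, 0.0828 and 0.0517), and *Ggps1* without C57BL/6J replicate 1, 2 or 3 or DBA/1J replicate 2 or 3 (adjusted p = 0.0511, 0.134, 0.121, 0.0664 and 0.131). The count was 3 without any one of the C57BL/6J brains, and DESeq2 called 8 among 2204 genes. The share of all genes given above is that of the fit with all libraries, and numbers of all genes called with 1 library left out are not given here. The median log2 fold change among the 9 oligodendrocyte markers was -0.25 in brain, with 4 called lower, and -0.015 in spinal cord, with 1 called higher and 3 lower. All 5 microglia markers were positive in both tissues (median 0.238 in spinal cord, where 1 was called higher, and 0.133 in brain). Of 5 blood markers 2 were called lower in spinal cord (median -0.394) and 1 in brain, and of 5 precursor markers 1 was called lower in spinal cord and 2 in brain. The part of these markers in the member values was not tested.

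**Figure D3:**
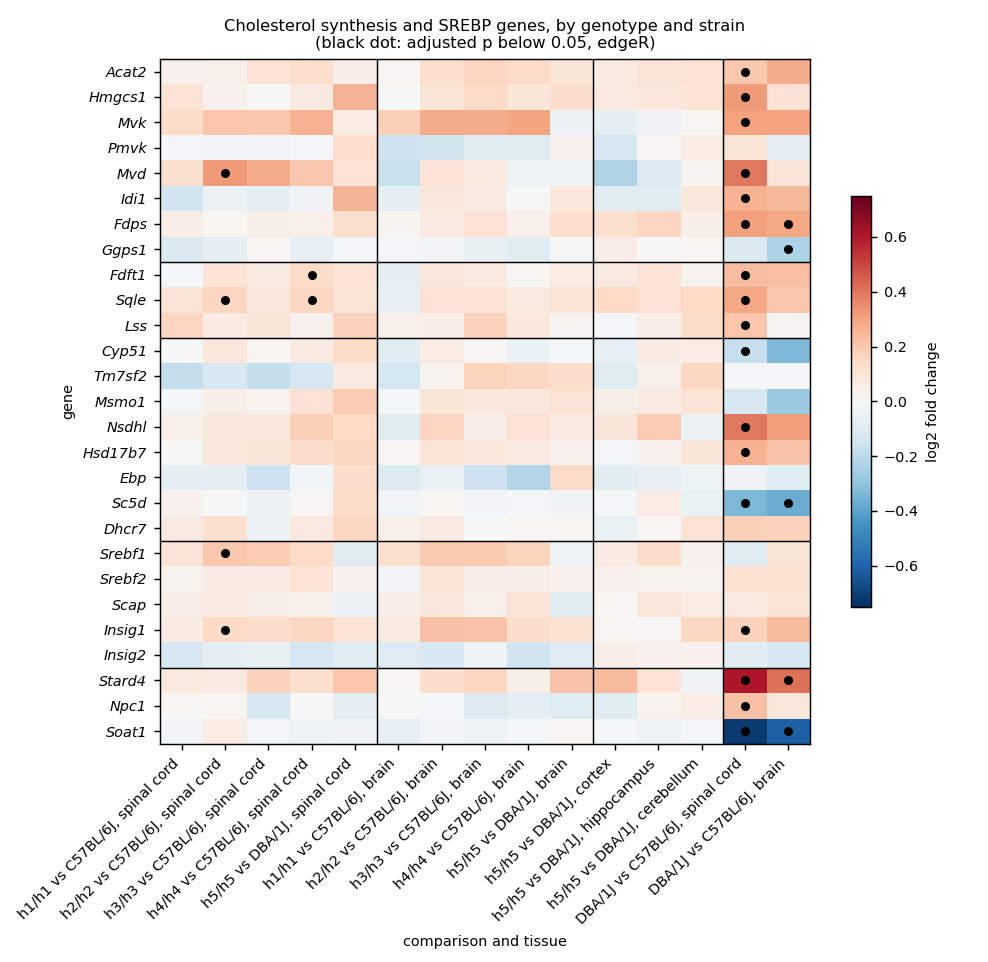
Log2 fold change (colour) of the 27 genes (y axis, grouped by role) in 15 comparisons of genotype or strain within a tissue (x axis), with a black dot where the adjusted p is below 0.05 in edgeR. The dots are 4 in h2/h2 and 2 in h4/h4 spinal cord, none in brain or regions of any mutant, and 17 in spinal cord and 5 in brain between DBA/1J and C57BL/6J.

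In mutant brain hemi-sections no member was called by edgeR or DESeq2 in any of the 5 strains. All genes called came to 0% in h1/h1, 0.136% in h2/h2, 0.164% in h3/h3, 0.703% in h4/h4 and 0% in h5/h5. The number of members with an unadjusted p under 0.05 was 0 in h1/h1, 6 in h2/h2 (5 higher), 7 in h3/h3 (all higher), 3 in h4/h4 (1 higher) and 1 in h5/h5. Across all genes that number was 745 of 17603, 1311 of 17594, 1833 of 17688, 2349 of 17789 and 1003 of 17299 in the same order. The smallest adjusted p of a member was 0.189, for *Mvk* in h4/h4 (0.29 ± 0.091). *Mvk* was at 0.28 in both h2/h2 and h3/h3 brain and 0.18 in h1/h1, and at -0.043 in h5/h5. *Insig1* was at 0.22 ± 0.071 in h2/h2 and 0.21 ± 0.072 in h3/h3, and *Srebf1* at 0.20 in both, all measured against the same 3 C57BL/6J brains. Member medians were -0.013, 0.084, 0.074, 0.042 and 0.032 for h1/h1 to h5/h5, and the all-gene medians were within 0.005 of 0. These medians moved when 1 library was left out, from -0.056 (without h1/h1 replicate 2) to 0.041 (without h1/h1 replicate 1) in h1/h1, from 0.047 (without h2/h2 replicate 3) to 0.108 in h2/h2, from 0.041 (without h3/h3 replicate 4) to 0.092 in h3/h3, and from 0.004 (without h4/h4 replicate 1) to 0.068 (without h4/h4 replicate 2) in h4/h4. In h5/h5 brain they ran from -0.004 without DBA/1J replicate 3 to 0.110 without DBA/1J replicate 1, the library that lacked cerebellum markers, with 0 members called by edgeR in each. The sign of the median in h1/h1 and h5/h5 brain thus rested on single libraries. The median log2 fold change of 4 cerebellum markers was -0.111, -0.194, -0.270, -0.464 and 0.692 for h1/h1 to h5/h5 brain. That of 9 oligodendrocyte markers was 0.005, -0.106, -0.201, -0.138 and -0.034, and of 5 microglia markers 0.078, 0.130, 0.174, 0.176 and -0.102. Of these only 1 oligodendrocyte marker was called, higher in h4/h4. Of 5 blood markers 1 was called lower in h2/h2 and 1 in h3/h3. The part of any marker was not tested.

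Whether the genotype effect differed between spinal cord and brain was tested within animals, with the animal as a block. No member was called for any strain, with 0% of all genes called for h1/h1, h2/h2, h3/h3 and h5/h5 and 0.0108% for h4/h4. The unadjusted p from edgeR was under 0.05 for 1 member each in h1/h1, h3/h3 and h4/h4 and for 0 in h2/h2 and h5/h5, and DESeq2 was not run for this test. The *Sqle* and *Mvd* calls in spinal cord are therefore not shown to be larger than the brain values of the same mice.

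The dissected regions of h5/h5 mice showed no called member. The test called 0% of genes in cortex, 0.0118% in hippocampus and 0.0120% in cerebellum, and DESeq2 called 0 members in each. An unadjusted p under 0.05 was found for 1 member in cortex, 1 in hippocampus and 0 in cerebellum, and for 1106 of 17220, 715 of 16961 and 937 of 16669 genes. *Sqle* had the values 0.15 ± 0.068, 0.11 ± 0.050 and 0.15 ± 0.078 in cortex, hippocampus and cerebellum, and *Hmgcs1* 0.071, 0.085 and 0.10, against 0.26 in spinal cord. *Stard4* was at 0.24 ± 0.077 in cortex, the unadjusted call there, and -0.028 in cerebellum. Member medians were 0.012, 0.036 and 0.054. Leaving out 1 library gave -0.001 (without DBA/1J replicate 3) to 0.030 (without h5/h5 replicate 1) in cortex, 0.032 to 0.069 (without h5/h5 replicate 1) in hippocampus and 0.033 (without DBA/1J replicate 3) to 0.071 in cerebellum. The median of 9 oligodendrocyte markers was -0.173, -0.130 and 0.093 in these regions, and of 5 blood markers 0.352, 0.380 and 0.707, none of them called. In cortex 4 hippocampus markers (*Prox1*, *Zbtb20*, *Fibcd1*, *Wfs1*) summed to 137.2, 102.4 and 94.1 TPM in h5/h5 and 64.2, 66.7 and 109.0 TPM in DBA/1J. The part of these markers in the member values was not tested.

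Levels of the pathway set spinal cord apart from brain in both wild-type strains. In C57BL/6J 25 of the 27 genes were higher in spinal cord, and in DBA/1J also 25, where 28.3% and 25.3% of all genes were higher, 28.5% and 25.6% lower and 56.9% and 50.8% were called in either direction. The summed TPM of the 27 genes was 1869 to 1980 in C57BL/6J spinal cord and 1004 to 1123 in brain of the same animals. *Hmgcs1* had 381 ± 27.1 TPM in spinal cord and 156 ± 13.4 TPM in brain (SD, n = 3), the highest of the list in both. After it in spinal cord came *Msmo1* (174 TPM), *Fdps* (124 TPM), *Insig1* (109 TPM), *Idi1* (103 TPM) and *Sc5d* (100 TPM), of which the last 3 overlapped their neighbours (103 to 113, 101 to 106 and 94.8 to 104 TPM). The lowest were *Mvd* (20.5 ± 0.622 TPM), *Soat1* (21.5 TPM) and *Tm7sf2* (23.4 TPM), with overlapping ranges.

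*Idi1* (log2 fold change 1.39 ± 0.050 in C57BL/6J and 1.41 ± 0.10 in DBA/1J), *Hmgcs1* (1.31 ± 0.063 and 1.53 ± 0.083), *Cyp51* (1.17 ± 0.047 and 1.34 ± 0.101) and *Sqle* (1.07 ± 0.053 and 1.17 ± 0.082) had the highest values in C57BL/6J. The median of the 27 was 0.87 in C57BL/6J and 0.97 in DBA/1J, and those of all genes were -0.001 and 0.001. *Ggps1* differed least among the enzymes (0.15 and 0.28). The regulators split: *Insig1* (1.05 and 0.99) and *Srebf1* (0.58 and 0.41) were higher in spinal cord, *Insig2* was higher by 0.17 and 0.21, and *Srebf2* (0.066 ± 0.056 and 0.077 ± 0.058) and *Scap* (0.078 ± 0.049 and 0.066 ± 0.047) were the 2 genes not called in either strain. *Srebf2* had 64.5 ± 4.78 TPM in C57BL/6J spinal cord and 62.7 ± 6.61 TPM in brain.

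Markers of several cell types moved with these values. All 9 oligodendrocyte markers were higher in spinal cord in both strains, with median log2 fold changes of 1.54 and 1.70, and their summed TPM was 5930 to 6175 in C57BL/6J spinal cord and 2147 to 2351 in brain. Of 6 astrocyte markers 3 were higher and 2 lower in C57BL/6J and 4 higher and 1 lower in DBA/1J (medians 0.445 and 0.514), with a summed TPM of 2343 to 2463 in C57BL/6J spinal cord and 1406 to 1447 in brain. The part of these markers in the member values was not tested. Brain DBA/1J replicate 1 had no bearing on the count, which was 25 without it. With the animal as a block, since both tissues came from the same mice, the count was 24 in C57BL/6J, where *Ggps1* was lost (adjusted p = 0.0601), and 25 in DBA/1J. The *Ggps1* call in C57BL/6J and the *Soat1* call in DBA/1J were lost without some single libraries (for *Ggps1*, brain replicate 1 or 2 or spinal cord replicate 1 or 3, with adjusted p of 0.101, 0.0636, 0.123 and 0.0643, and for *Soat1*, brain replicate 2 or 3 or spinal cord replicate 1, 2 or 3, with adjusted p of 0.132, 0.0909, 0.0644, 0.0922 and 0.0942).

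**Figure D4:**
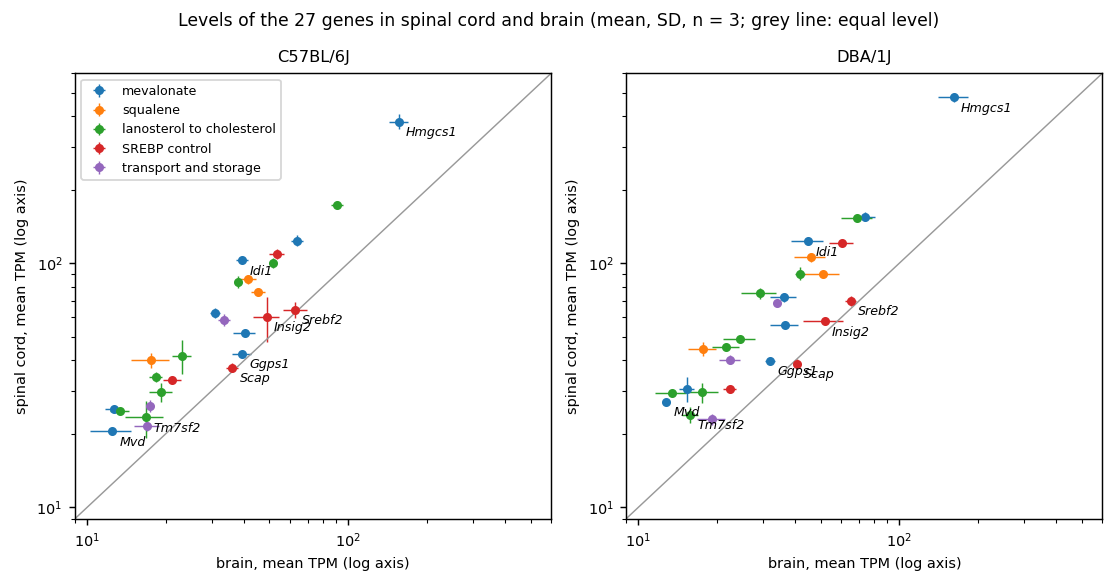
Mean TPM of each of the 27 genes in brain (x, log axis) and spinal cord (y, log axis) of C57BL/6J (left) and DBA/1J (right), with SD of 3 animals as bars, coloured by role; the grey line marks equal levels. Most genes lie above the line, *Hmgcs1* at 381 against 156 TPM in C57BL/6J, while *Srebf2* and *Scap* lie close to it.

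Regions of DBA/1J mice had overlapping sums of pathway transcripts, at 1096 to 1123 TPM in cortex, 1073 to 1130 TPM in hippocampus and 1000 to 1134 TPM in cerebellum. As a share of counts, the scale that was tested, cerebellum lay below the other regions, at 0.124 to 0.137% in cerebellum against 0.145 to 0.161% in cortex and 0.146 to 0.151% in hippocampus. Between cerebellum and cortex 13 members were lower in cerebellum and 5 higher, where 58.1% of all genes were called (28.6% higher and 29.5% lower). The members lower in cerebellum were led by *Fdft1* (-0.96 ± 0.102), *Msmo1* (-0.87 ± 0.095), *Sqle* (-0.79 ± 0.071), *Hmgcs1* (-0.72 ± 0.086), *Nsdhl* (-0.71 ± 0.092), *Acat2*, cytosolic thiolase (-0.71 ± 0.075), *Srebf2* (-0.67 ± 0.071) and *Fdps* (-0.56 ± 0.083). *Fdft1* was at 53.36 to 55.22 TPM in cortex and 26.97 to 36.64 TPM in cerebellum, with no overlap. The members higher in cerebellum were *Ebp*, the sterol isomerase (1.09 ± 0.083), *Stard4* (0.58 ± 0.081), *Ggps1* (0.51 ± 0.088), *Insig2* (0.30 ± 0.088) and *Sc5d* (0.22 ± 0.082). *Ebp* was at 14.6 to 18.1 TPM in cortex and 42.5 to 44.1 TPM in cerebellum. Thus *Ebp* and *Sc5d*, which act late in the pathway, were higher in a region where 5 of the 8 enzymes after lanosterol were lower. Oligodendrocyte markers summed to 1387 to 1728 TPM in cerebellum and 1234 to 1731 TPM in cortex, which overlap, and 3 of the 9 were called lower. The 5 microglia markers were all called lower in cerebellum (median -2.06), summing to 73.7 to 80.0 TPM against 231.5 to 265.2 TPM in cortex, and so were 4 of 5 markers of oligodendrocyte precursors and new oligodendrocytes (median -1.08), at 35.9 to 42.9 against 65.0 to 74.4 TPM. Their part in the member values was not tested. The *Sc5d* call was lost without cortex replicate 2 or 3 or cerebellum replicate 1 or 2 (adjusted p = 0.112, 0.143, 0.134 and 0.108) and the *Insig2* call without cerebellum replicate 3 (adjusted p = 0.0567).

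Between hippocampus and cerebellum 17 members were called, 12 higher in hippocampus and 5 lower, where 64.0% of all genes were called (31.8% higher and 32.2% lower). *Msmo1* (0.85 ± 0.069), *Fdft1* (0.84 ± 0.091), *Sqle* (0.81 ± 0.059) and *Soat1* (0.73 ± 0.080) were higher, and *Ebp* (-1.02 ± 0.074) and *Stard4* (-0.81 ± 0.075) lower. All 5 microglia markers (median 1.77) and 4 of the 5 precursor markers (median 1.17) were also higher in hippocampus, and their part was not tested there either. Between hippocampus and cortex 3 members were called. *Acat2* was lower in hippocampus (-0.28 ± 0.070) and *Srebf1* (0.28 ± 0.073) and *Soat1* (0.31 ± 0.087) were higher, where 20.6% of all genes were called (9.78% higher and 10.8% lower). With the animal as a block, since the regions came from the same mice, 5 members were called. Without cortex replicate 2, hippocampus replicate 1 or hippocampus replicate 3 the unblocked count was 0, without hippocampus replicate 2 it was 1, and without cortex replicate 3 it was 5. The *Soat1* call was also lost without cortex replicate 1 (adjusted p = 0.0539). The summed TPM of 4 hippocampus markers was 109.0 in cortex replicate 3 and 64.2 and 66.7 in cortex replicates 1 and 2. In hippocampus 2 of 6 astrocyte markers were called higher, and 2 of 5 neuron and 2 of 5 microglia markers lower. Their part in the member values was not tested.

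**Figure D5:**
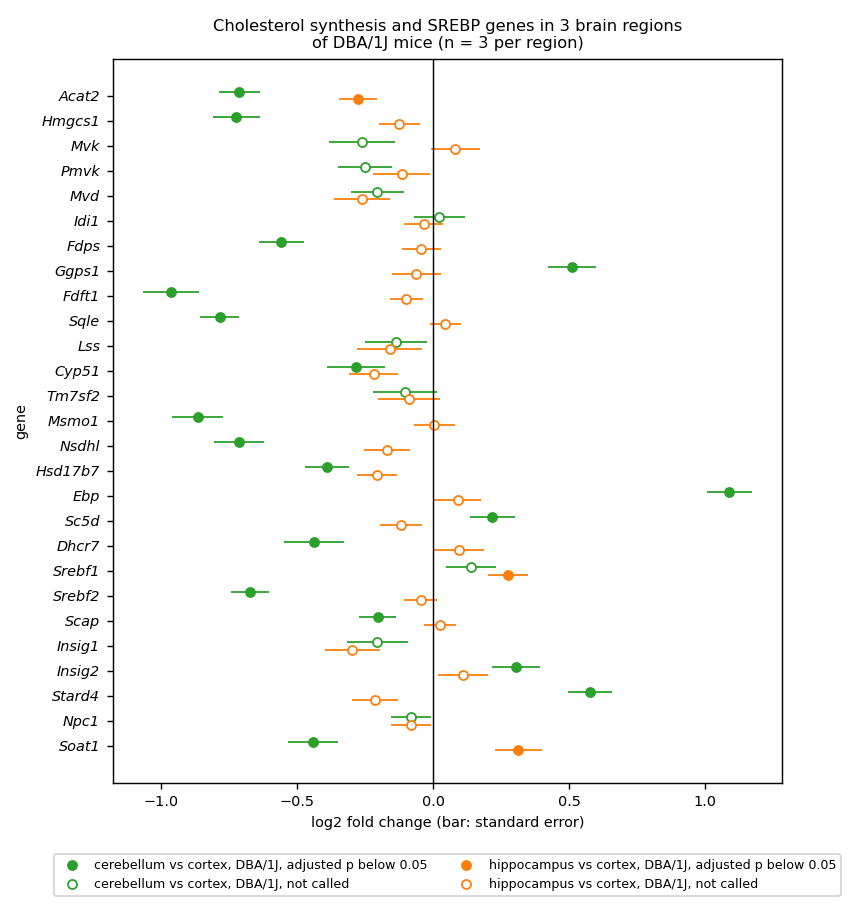
Log2 fold change with SE of each of the 27 genes (y axis) for cerebellum against cortex and hippocampus against cortex in DBA/1J mice (n = 3 per region); filled points have an adjusted p below 0.05. In cerebellum *Fdft1* is at -0.96 and *Ebp* at 1.09, and 3 hippocampus points are filled.

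Other genes of lipid synthesis were read from 5 lists. Of 10 fatty acid synthesis genes, *Mid1ip1*, an activator of acetyl-CoA carboxylase, was higher in h2/h2 (0.20 ± 0.029, adjusted p = 0.00138) and h4/h4 spinal cord (0.19 ± 0.038, adjusted p = 0.0186), and *Elovl5*, a fatty acid elongase, was lower in h3/h3 (-0.17 ± 0.036, adjusted p = 0.0409). Of 9 sterol export and oxysterol genes, *Lpcat3*, which remodels membrane phospholipids, was higher in h2/h2 (0.31 ± 0.060, adjusted p = 0.0117) and h4/h4 spinal cord (0.30 ± 0.070, adjusted p = 0.0423). All genes called in spinal cord came to 2.09% in h2/h2, 1.75% in h4/h4 and 1.01% in h3/h3. Without C57BL/6J replicate 1 only *Mid1ip1* in h2/h2 kept its call (adjusted p = 0.0121), with adjusted p of 0.0976 for *Mid1ip1* in h4/h4, 0.0871 and 0.167 for *Lpcat3* and 0.211 for *Elovl5*. *Mid1ip1* in h4/h4 also lost it without either other control (adjusted p = 0.0510 and 0.0620), and over the 7 refits that left out 1 library *Lpcat3* was called in 6 in h2/h2 and 1 in h4/h4 and *Elovl5* in 1. No other gene of these lists was called by edgeR in a mutant, in any tissue, nor was any of the 10 sterol uptake and transfer genes, the 7 genes of SREBP cleavage and endoplasmic reticulum control or the 11 genes of the isoprenoid branch.

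Between tissues and strains more of these genes were called. All 10 fatty acid synthesis genes were higher in spinal cord than brain in both strains, where 28.3% of all genes were higher in C57BL/6J and 25.3% in DBA/1J, among them *Acly*, ATP citrate lyase (1.18 ± 0.047 in C57BL/6J and 1.22 ± 0.047 in DBA/1J), and *Scd1*, stearoyl-CoA desaturase (1.26 and 1.31). Of the oxysterol genes *Cyp27a1*, the bile-acid-pathway sterol hydroxylase, was higher (1.92 ± 0.096 and 2.14 ± 0.132) and *Cyp46a1*, the neuronal cholesterol hydroxylase, lower (-1.43 ± 0.067 and -1.50 ± 0.060). Of the sterol uptake and transfer genes 3 of 10 were higher and 3 lower in C57BL/6J, a share near the 56.9% of all genes called there, among them *Npc2*, the lysosomal partner of NPC1 (0.89 ± 0.055), and *Gramd1b*, a sterol transfer protein (-0.66 ± 0.047). Of the 11 isoprenoid genes 4 were higher and 1 lower, with both farnesyltransferase subunits *Fntb* (1.04 ± 0.059) and *Fnta* (0.94 ± 0.067) among the former. Of the 7 cleavage genes 2 were lower in spinal cord in C57BL/6J and 0 higher (*Erlin1* at -0.51 and *Mbtps2*, a protease that cleaves SREBP, at -0.20, the latter not called without spinal cord replicate 1, adjusted p = 0.104). Among DBA/1J and C57BL/6J spinal cords 5 of 10 fatty acid genes were higher and 2 lower in DBA/1J (*Acaca*, acetyl-CoA carboxylase, at -0.39 ± 0.038 and *Me1*, malic enzyme, at -0.30 ± 0.037), where 21.3% of all genes were called, and without C57BL/6J replicate 1 it was 4 and 3. In the isoprenoid branch 1 of 11 was higher and 3 lower (1 and 2 without that library), led by *Coq2*, of ubiquinone synthesis, at -0.91 ± 0.056 in spinal cord and -0.83 ± 0.063 in brain. The named differences between DBA/1J spinal cord and brain, and *Coq2* in brain, kept their calls without brain DBA/1J replicate 1 (*Coq2* at -0.83, *Acly* at 1.23, *Scd1* at 1.38, *Cyp27a1* at 2.16 and *Cyp46a1* at -1.46). Between cerebellum and cortex, where 58.1% of all genes were called (28.6% higher and 29.5% lower), 6 of the 8 sterol export and oxysterol genes tested were higher and 2 lower, *Cyp46a1* lowest at -2.54 ± 0.080, and 3 of 10 fatty acid genes were higher and 2 lower, no larger a share than among all genes.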

How the data were processed

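The 66 polyA libraries were read as 150-base pairs. Per the labels and the study's methods, the authors checked reads with FastQC, trimmed them with Trim Galore, aligned them with STAR to GRCm38 and quantified genes with RSEM. The annotation release is not given in the sources used here. The deposited files hold expected counts (estimated counts of reads, rounded here to whole numbers), TPM computed by the authors, and an effective transcript length in bases for each gene. The GENCODE mouse annotation gave symbols for 41407 of the 45706 identifiers. The members, the other gene lists and the comparisons were chosen with earlier results of these data known.

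Counts were tested with edgeR 4.0.16 in R 4.3.3 (filterByExpr, TMM, quasi-likelihood F-test, Benjamini-Hochberg adjustment over all genes tested, threshold 0.05), with only the groups compared in each fit, after tests on simulated data. The tissue difference of the genotype effect was fitted with the animal as a block. All 27 members could be named, with values in every library for those called in a mutant, and from the other lists up to 4 called genes with the smallest adjusted p. Alternatives were DESeq2 1.42.0, edgeR with the DESeq2 size factors, omission of the low-count filter, a replicate block, sex as a covariate, one fit per tissue, leaving out each library and, for h5/h5, the series of the animal identifiers, which some mutant and DBA/1J mice share, as a block. Those leaving out several Schwann cell libraries or the most abundant identifier, and the refits of genes outside the list, were chosen after seeing the data. The most abundant identifier held 1.29 to 12.5% of the counts of a library. Identifiers without a symbol held 6.966 to 9.425% in h1/h1 spinal cord and 1.934 to 4.718% in C57BL/6J spinal cord. A further Schwann cell marker besides the 4 given is not reported here. Replicates are separate animals. In h1/h1 and C57BL/6J brain the deviations of same-numbered samples correlated weakly (0.113 to 0.198), and the block called 0 members there. These were different mice, with the sexes in the same order in both groups, and why they correlated was not tested. Spinal cord and brain of the same number, and the 3 regions of the same number, share an animal.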

Additional observations from a re-analysis of the deposited data

Results flagged for a closer look

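In groups of 4 libraries a single one lay far from the other 3 in CPM for 14 of the 162 combinations of a member and a group, by a gap over the whole range of the group above 0.829, where chance gives about 1 in 20. In h2/h2 brain the gap was 0.897 for *Acat2* (replicate 2 at 31.9 CPM, the others at 35.9 to 36.3), 0.838 for *Mvk* (replicate 2 at 9.1, the others at 11 to 11.3), 0.829 for *Lss* (replicate 1 at 38.9, the others at 42.9 to 43.7) and 0.881 for *Scap* (replicate 1 at 64.0, the others at 71.9 to 73). In h3/h3 brain it was 0.961 for *Mvk* (replicate 2 high), 0.878 for *Mvd* (replicate 1 low), 0.840 for *Sqle* (replicate 4 high), 0.855 for *Dhcr7* (replicate 1 low) and 0.871 for *Insig1* (replicate 4 at 87.4, the others at 71.7 to 73.7). In h4/h4 brain replicate 1 was high for *Hsd17b7* (0.914) and *Ebp* (0.888). In spinal cord the gap was 0.921 for *Lss* in h3/h3 (replicate 4 at 96.1 CPM, the others at 85.9 to 86.7), and for *Npc1* 0.951 in h3/h3 (replicate 1 at 137, the others at 149 to 150) and 0.834 in h4/h4 (replicate 3 at 154, the others at 160 to 162). None of these members was called in the comparison of the same group and tissue.

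Some members lay wholly on opposite sides of their controls in a pair of tissues or strains. These differences were not tested. Across all genes 5.65% lay wholly above and 5.97% wholly below DBA/1J in h5/h5 brain, 4.90% and 4.89% in hippocampus, 5.32% and 5.90% in cerebellum and 6.47% and 8.19% in spinal cord, and 5.77% lay above C57BL/6J in h4/h4 brain, so that a few such members are near the share of all genes. In h5/h5 the log2 fold change of *Idi1* was -0.089 in hippocampus and 0.257 in spinal cord. That of *Npc1* was -0.099 in brain and -0.070 in spinal cord and 0.055 in cerebellum, and that of *Nsdhl* -0.045 in cerebellum, 0.192 in hippocampus and 0.152 in spinal cord. *Scap* was at 0.098 in h4/h4 brain, -0.077 in h5/h5 brain and 0.086 in h5/h5 hippocampus. None of the comparisons in which these values stand called the gene.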

How the results depend on the processing

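Of the 25 counts of members called, 18 stayed within 1.5 times their value under all alternatives run, but 13 of these were counts of 0, which say little about stability, and 250 of 285 alternative fits did so. The 126 log2 fold changes of members refitted here (those called, and the 10 members wholly above DBA/1J in h5/h5 spinal cord) kept their sign in every alternative fit, whereas 216 of the 549 others, none called, changed sign in 1 or more. The 126 were chosen because they were called or did not overlap in these same data. A change of sign was thus hardly possible for them, and its absence says little about stability. In spinal cord DESeq2 called 1 member in h1/h1, 2 in h3/h3, 6 in h4/h4 and 4 in h5/h5, among 139, 439, 581 and 91 genes. Without the low-count filter the counts were 2 in h1/h1, 4 in h4/h4 and 1 in h5/h5, among 477, 686 and 25 genes, and one fit of all spinal cord groups gave 2 in h2/h2, 2 in h3/h3 and 2 in h5/h5, among 174, 475 and 62 genes. Leaving out C57BL/6J replicate 1 and h2/h2 replicate 1 together, an alternative chosen after seeing the data, gave 0 in h2/h2 with 1 control fewer, while all genes called fell from 365 to 86. In brain DBA/1J against C57BL/6J gave 8 with DESeq2 and 9 in one fit of all brain groups, among 2204 and 3017 genes (1952 otherwise). With the identifier series as a block 0 members were called in the h5/h5 comparisons, as without it. The causes were not tested.

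With the replicate block the counts were 0 in h4/h4 and 3 in h2/h2 spinal cord, and 5 for hippocampus against cortex, among 231, 292 and 3815 genes (305, 365 and 3537 without it). The replicate numbers of mutant and control mice are not stated to pair them, and correlations of same-numbered deviations ran from -0.316 to 0.254 between mutants and controls. The block changed no other count by over 1.5 times.

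When 1 library was left out at a time, the count ran from 0 to 1 in h1/h1, 0 to 4 in h2/h2, 0 to 0 in h3/h3, 0 to 1 in h4/h4 and 0 to 0 in h5/h5 spinal cord, and stayed at 0 in brain, the regions and the tissue differences of the mutants. It ran from 15 to 17 between strains in spinal cord and 3 to 6 in brain, 24 to 25 between spinal cord and brain in each strain, 15 to 19 for cerebellum and 0 to 5 for hippocampus against cortex, and 15 to 17 for hippocampus against cerebellum. The 1 in h1/h1 came without C57BL/6J replicate 2.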
